A study of Homo sapiens with 8 samples.

Results

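The heat shock chaperone genes described here are 10 of the 19970 protein-coding genes of the GENCODE annotation, chosen by name. They are 6 chaperone genes known as heat-inducible (HSPA1A, HSPA1B, DNAJB1, HSPH1, HSPB1 and HSP90AA1), 3 chaperone genes that most cells express all the time (HSPA8, HSP90AB1 and HSPA5), and the regulator HSF1. HSPA5 is also induced, but by stress in the endoplasmic reticulum. Accessible chromatin was read from ATAC-seq, where Tn5 transposase inserts adapters into exposed DNA, in 8 libraries. The cells were HEK293T, a line from human embryonic kidney with the large T antigen of SV40. Of these, 4 libraries came from cells with an H2A(E92K) lentivector, called E92K from here, and 4 from cells with an H2A lentivector. E92K puts a lysine in place of a glutamate in the acidic patch, a nucleosome surface that many chromatin proteins bind. The labels give no treatment such as heat in either group, call the cells both transfected and lentivector-bearing, and do not say how much of the H2A in the cells came from the vector.

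Heat shock proteins are chaperones: they hold unfolded proteins, help them fold and keep them from clumping. HSF1 is the transcription factor that drives the response to heat. In unstressed cells it is held inactive, and on stress it forms trimers that bind heat shock elements, repeats of the unit GAA and its reverse complement TTC in alternating direction. Promoters of the inducible HSP70 genes are textbook cases of promoters kept open, with a paused RNA polymerase, before any stress.

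Sequences just before the start sites are printed for 8 of these genes. Of them, 2 are near-copies that behaved differently in every library. The others show which promoters hold a heat shock or stress element close to the start and which do not. Each line holds the 150 bases before the start site, 5′ to 3′ on the gene's strand, from RefSeq promoters on GRCh38.p14. For HSPH1, whose RefSeq entry starts 484 bp from the GENCODE canonical start, the bases were read from hg38 at the GENCODE start. Capitals mark matches to GAANNTTC or TTCNNGAA, and in HSPA5 the endoplasmic reticulum stress element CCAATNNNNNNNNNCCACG.
HSPA1A (chr6:31815393-31815542, plus strand): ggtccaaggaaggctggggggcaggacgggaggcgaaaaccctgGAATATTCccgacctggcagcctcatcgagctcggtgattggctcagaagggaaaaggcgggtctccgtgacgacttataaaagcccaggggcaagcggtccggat
HSPA1B (chr6:31827588-31827737, plus strand): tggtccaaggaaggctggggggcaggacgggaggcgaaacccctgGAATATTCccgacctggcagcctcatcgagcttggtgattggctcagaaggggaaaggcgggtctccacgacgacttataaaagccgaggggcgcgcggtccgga
DNAJB1 (chr19:14518398-14518547, minus strand): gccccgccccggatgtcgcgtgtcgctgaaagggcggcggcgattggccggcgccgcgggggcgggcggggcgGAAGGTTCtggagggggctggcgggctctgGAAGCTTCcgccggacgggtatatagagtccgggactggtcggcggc
HSPH1 (chr13:31161905-31162054, minus strand): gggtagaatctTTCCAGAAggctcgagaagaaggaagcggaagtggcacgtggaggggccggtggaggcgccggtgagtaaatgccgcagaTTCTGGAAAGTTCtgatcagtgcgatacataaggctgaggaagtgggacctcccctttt
HSP90AA1 (chr14:102087045-102087194, minus strand): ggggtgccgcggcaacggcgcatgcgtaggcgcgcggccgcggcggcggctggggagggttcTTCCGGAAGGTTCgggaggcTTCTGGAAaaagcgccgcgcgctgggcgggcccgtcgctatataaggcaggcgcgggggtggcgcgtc
HSPA8 (chr11:123062137-123062286, minus strand): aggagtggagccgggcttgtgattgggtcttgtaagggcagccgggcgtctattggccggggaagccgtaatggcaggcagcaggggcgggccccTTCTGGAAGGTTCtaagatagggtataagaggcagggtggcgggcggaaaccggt
HSP90AB1 (chr6:44246951-44247100, plus strand): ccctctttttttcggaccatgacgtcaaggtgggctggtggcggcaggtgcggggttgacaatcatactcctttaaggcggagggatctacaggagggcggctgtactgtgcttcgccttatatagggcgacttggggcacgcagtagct
HSPA5 (chr9:125241344-125241493, minus strand): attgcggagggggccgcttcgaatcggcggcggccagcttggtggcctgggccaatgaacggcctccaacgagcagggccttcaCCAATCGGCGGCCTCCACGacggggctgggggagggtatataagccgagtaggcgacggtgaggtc

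Motifs were searched on both strands from 250 bases before to 50 bases after the start. A match to GAANNTTC or TTCNNGAA, which overlap in longer elements, lay in 6 of 6 inducible promoters and in 1 of 3 constant ones (HSPA8), while 10.94% of 15315 coding RefSeq promoters of the same length hold one. With HSPH1 taken at its RefSeq start, as in that background, the count is 5 of 6. The match of HSPB1, GAAGGTTC, starts 182 bases before its start site, beyond the stretch printed for the other genes. The longer element GAANNTTCNNGAA, found in 0.36% of promoters, was present in HSP90AA1, HSPH1 and HSPA8. A further copy in HSPA8 starts 230 bases before its start site, also beyond the printed stretch. HSPA1A and HSPA1B also hold TATAAA, found in 9.42% of promoters. The stress element of HSPA5 is in 0.13% of promoters. Apart from that of HSPA1A, which had no peak over it in any library, each heat shock or stress element match named here lay under a called peak in all 8 libraries. A match describes letters and does not show binding.

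The E92K lists held 55527 to 61850 peaks and the H2A lists 57439 to 62044. Genome-wide background, a trace of depth that these lists keep, was 2.23 to 2.68 fragments in the E92K libraries and 2.52 to 2.93 in the H2A libraries. The 9 genes taken as markers of HEK293T cells were PAX2, LHX1, SALL1, SIX2, WT1, NEFL, NEFM, INA and VIM. All 9 had a promoter peak in all 8 libraries, as did 65.5% of all coding genes. Of 10 markers of other cell types, 9 had none in any library, and the leukocyte gene PTPRC had one in 1 E92K library. Both lists were chosen with earlier results of these data known, so these counts do not test what the cells are. The labels do not say that replicates were separate cultures, so a p-value reflects no more than library-to-library spread, which may be technical. A peak is an average over many cells: fewer open cells and less opening per cell cannot be told apart.

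A promoter peak was the strongest peak within 1000 bp of the canonical start site. Its percentile is its place by −log10 p among all peaks of its own list, and its fold is the pileup of fragments at the summit over local background, both from the authors' values. HSPA5, HSPA1B and HSPA8 had promoter peaks near the top of every list, with mean percentiles of 99.1 ± 0.405, 98.9 ± 0.547 and 98.8 ± 0.633 (SD, n = 8). Next came HSPH1 at 95.3 ± 0.880, then HSP90AB1 at 88.8 ± 1.50 and DNAJB1 at 88.1 ± 2.99. HSP90AA1, HSF1 and HSPB1 followed at 81.3 ± 5.56, 80.1 ± 3.11 and 75.8 ± 4.57. The 3 leading genes overlapped in range, as did each gene from HSP90AB1 down with the next, whereas HSPH1 overlapped with neither neighbour in this order. For scale, the median promoter with a peak in all 8 libraries stood at percentiles of 87.7 to 89.1.

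**Figure D1:**
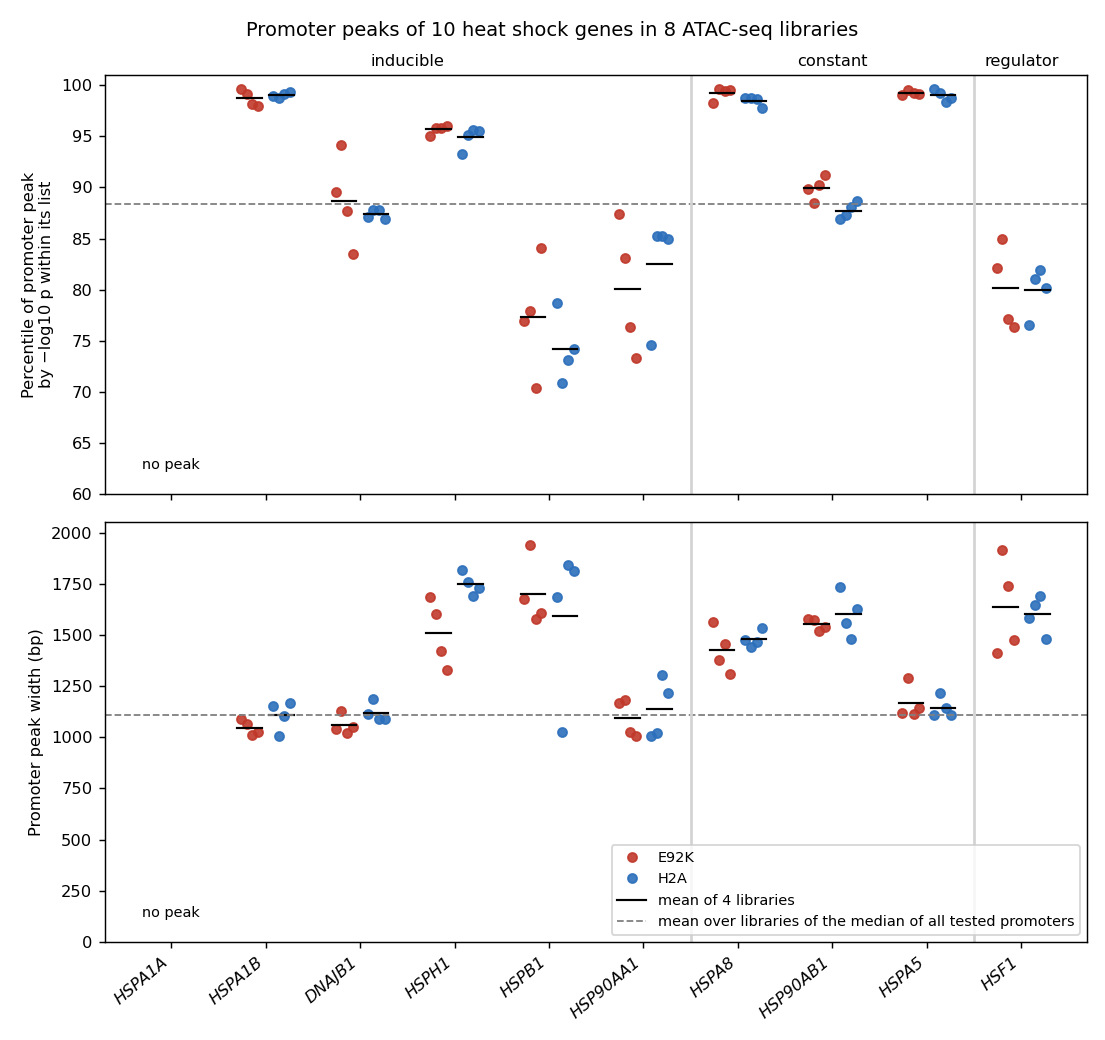
Percentile within the list (top) and width in bp (bottom) of the promoter peak of each gene, one point per library, E92K in red to the left of H2A in blue. Black bars are means of 4 libraries and the dashed line is the mean over libraries of the median of 13084 promoters. HSPA1A has no points because it had no promoter peak in any library, and the axis of percentiles starts at 60.

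HSPA1A and HSPA1B, the major stress-inducible HSP70 genes, are neighbours on chromosome 6 and encode nearly the same protein, yet their promoters were far apart in these lists. HSPA1B had a promoter peak in 4 of 4 E92K and 4 of 4 H2A libraries. HSPA1A had a promoter peak in 0 of 4 E92K and 0 of 4 H2A libraries, and so did HSPA1L, an HSP70 gene that points the other way from the same promoter.

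The promoter peak of HSPA1B stood at percentiles 99.6, 99.1, 98.2 and 98.0 in E92K libraries 1 to 4, against 99.0, 98.7, 99.1 and 99.3 in H2A libraries 1 to 4. Its summit held 314, 346, 279 and 281 fragments in the E92K libraries, against 316, 300, 321 and 395 in the H2A libraries. The groups overlapped in percentile and in fragments. Fragments were not scaled for depth: the median tested promoter held 122 to 147 in E92K and 128 to 156 in H2A libraries. The summit lay 262 to 298 bp before the start site, so the GAATATTC element, 105 bases before the start, was between summit and start under the peak.

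In the HSPA1A window, the gene plus 10 kb either side, all 8 lists had the same 3 peaks. They were the promoter of LSM2, centred 8.6 kb before the HSPA1A start, a weaker peak 6.3 kb after it, with percentiles between 16.5 and 55.4, and the HSPA1B promoter. Nothing was called between the LSM2 promoter and the weaker peak, a stretch that holds HSPA1L and all of HSPA1A. The 200 bases before the 2 starts are 94.5% identical over 199 aligned bases.

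**Figure D2:**
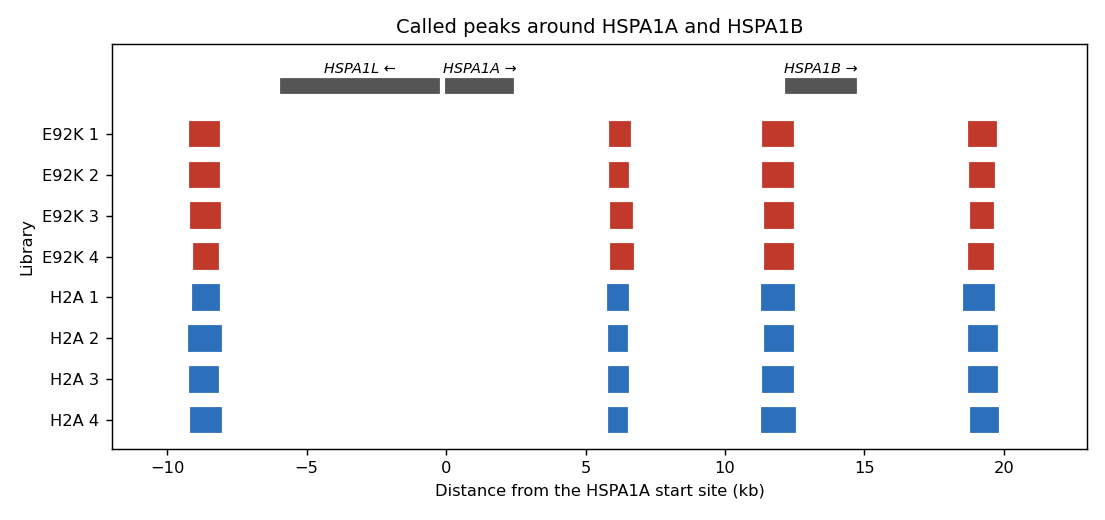
Called peaks (blocks) in each of the 8 libraries, by distance in kb from the HSPA1A start site, E92K libraries in red above H2A libraries in blue; grey bars are the gene spans with arrows for direction. Every library has a block at the HSPA1B start and none over HSPA1A or HSPA1L.

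Copies of the promoter sequences were counted in hg38. Within 1000 bp of the start, 38.11% of 50-base words of HSPA1A and 38.17% of those of HSPA1B occur more than once in the main chromosomes of hg38. In both genes these words lie after the start (78.15% of words there in HSPA1A and 78.26% in HSPA1B), none lies before it, and the earliest word shared by the pair begins 208 bases after the start. The HSPA1B peak ended 243 to 304 bp after its start. Counting the other contigs of hg38 as well, 97.44% of words of either gene have a further copy. How the aligner treated reads that match several places is not given in the sources used here, and its part in the missing HSPA1A peak was not tested.

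DNAJB1 encodes the J-domain partner that hands clients to HSP70. Its promoter peak stood at percentiles 89.5, 94.2, 87.7 and 83.5 in E92K libraries 1 to 4, against 87.2, 87.8, 87.8 and 86.9 in H2A libraries 1 to 4. The H2A libraries lay close together inside the spread of the E92K ones. The peak was 1020 to 1129 bp wide in E92K and 1087 to 1186 bp in H2A libraries, near the median of all promoters, and covered both GAANNTTC elements printed for DNAJB1.

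HSPH1 encodes HSP105, an HSP70-like nucleotide exchange factor. Its percentiles were 95.1, 95.8, 95.8 and 96.0 in the E92K libraries, against 93.3, 95.1, 95.6 and 95.6 in the H2A libraries. The peak was 1687, 1604, 1422 and 1328 bp wide in E92K libraries, against 1818, 1756, 1692 and 1731 bp in H2A libraries. All E92K widths were below all H2A widths. The 2 narrowest peaks, those of E92K 3 and E92K 4, ended 556 and 462 bp after the start, whereas the others ended 809 to 879 bp after it. The edge before the start lay 754 to 938 bp before it over the 8 libraries. E92K 3 and E92K 4 also had the lowest background of the 8 libraries, at 2.23 and 2.26 fragments. By fragments at the median tested promoter, E92K 1 was lowest at 122, with 125 in both E92K 3 and E92K 4. The median widths of E92K 3 and E92K 4 over all tested promoters, 1088 and 1045 bp, were the smallest, against 1094 to 1139 bp in H2A libraries. The part of depth in these widths was not tested.

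HSPB1 encodes HSP27, a small heat shock protein that holds unfolded proteins without using ATP. Its peak was unlike the rest in shape. The strongest summit lay 945 to 979 bp after the start in all 8 libraries, inside a gene of 1.62 kb, and each peak had 2 to 5 summits. Percentiles were 76.9, 77.9, 70.4 and 84.1 in the E92K libraries, against 78.7, 70.9, 73.1 and 74.2 in the H2A libraries. The groups overlapped. The peak spanned the start and was 1576 to 1940 bp wide in the E92K libraries and 1684 to 1840 bp in 3 H2A libraries. In H2A 2 it was 1026 bp wide and began 294 bp after the start, with a separate called peak over the GAAGGTTC element before the start.

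HSP90AA1, the inducible cytosolic HSP90, had percentiles of 87.4, 83.1, 76.4 and 73.4 in the E92K libraries, against 74.6, 85.2, 85.2 and 84.9 in the H2A libraries. H2A 1 was low and the other 3 H2A libraries lay together. Its peak was 1007 to 1183 bp wide in E92K and 1004 to 1305 bp in H2A libraries. The summit moved between 2 and 365 bp before the start, the widest range of summit positions among these genes.

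HSPA8 encodes HSC70, the HSP70 of unstressed cells. Its promoter peak had percentiles of 98.3, 99.6, 99.4 and 99.5 in the E92K libraries, against 98.8, 98.8, 98.7 and 97.8 in the H2A libraries. Of the E92K libraries 3 were above all H2A libraries and E92K 1 was not. The peak was 1311 to 1561 bp wide in E92K and 1440 to 1534 bp in H2A libraries, and 80.3% of the tested promoters were narrower on average.

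HSP90AB1 encodes the constant cytosolic HSP90. Its percentiles were 89.8, 88.4, 90.3 and 91.2 in the E92K libraries, against 87.0, 87.3, 88.0 and 88.6 in the H2A libraries. The groups overlapped only through E92K 2 and H2A 4. With 1520 to 1578 bp in E92K and 1480 to 1732 bp in H2A libraries it was wide, yet its fold was low, at 6.59 to 7.86 in E92K and 6.35 to 6.76 in H2A libraries.

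HSPA5 encodes BiP, the HSP70 of the endoplasmic reticulum. It had the highest fold of these genes, 11.2 to 11.3 in E92K and 10.7 to 11.9 in H2A libraries. Percentiles were 99.0, 99.5, 99.3 and 99.1 in the E92K libraries, against 99.6, 99.2, 98.4 and 98.7 in the H2A libraries. The summit lay 131 to 148 bp before the start in all 8 libraries, the narrowest range among these genes.

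HSF1 shares its promoter region with BOP1, a ribosome biogenesis gene. The peak there stood at percentiles 82.2, 85.0, 77.2 and 76.4 in the E92K libraries, against 76.5, 81.1, 82.0 and 80.2 in the H2A libraries. It was 1412 to 1914 bp wide in E92K and 1479 to 1691 bp in H2A libraries. Its range overlapped with those of HSP90AA1 and HSPB1, its neighbours in the order of mean percentiles.

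Whether promoters held for heat differ from promoters in constant use was read within each library, as the median of the 5 inducible genes with a peak minus the median of the 3 constant genes. The inducible median percentile was lower in 8 of 8 libraries. Differences were −8.73, −5.32, −11.6 and −15.0 points in the E92K libraries, against −11.6, −11.0, −10.5 and −10.9 in the H2A libraries. The means were −10.2 ± 4.13 in E92K and −11.0 ± 0.449 in H2A libraries (SD, n = 4 each). The inducible peaks were also narrower by their median in 8 of 8 libraries, by −393, −196, −432 and −263 bp in E92K and −322, −414, −158 and −317 bp in H2A libraries. Fold gave no common direction: the differences were 0.342, −0.458, −0.512 and −1.97 in the E92K libraries, against −0.298, 0.0699, 0.554 and 0.762 in the H2A libraries.

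**Figure D3:**
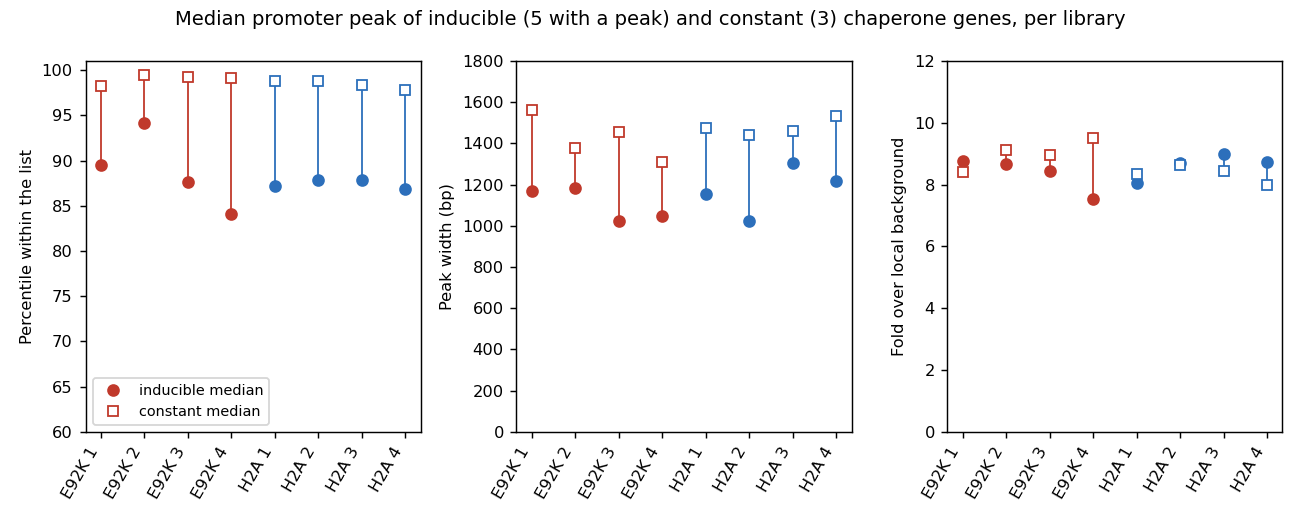
Median percentile, width in bp and fold of the promoter peaks of 5 inducible genes (filled circles) and 3 constant genes (open squares) in each library, E92K libraries in red to the left of H2A libraries in blue. The inducible median is below the constant median in 8 of 8 libraries for percentile and width, and on either side of it for fold; the axis of percentiles starts at 60.

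These medians rest on few genes, no test was made over them, and members of the sets cross. HSPA1B, an inducible gene, stood above HSP90AB1, a constant one, in every library. Without HSPA5 the mean difference over 8 libraries was −5.69 points in place of −10.6, and with HSF1 counted as constant it was −5.63. In E92K 2 the inducible median percentile, 94.2, was slightly above the constant one under either change. Without HSPA1A and HSPA1B the width difference was −115 ± 123 bp (SD, n = 8) in place of −312 bp, and it was above 0 in 2 of 8 libraries, E92K 2 and H2A 3. In mean width HSPH1 and HSPB1, at 1630 and 1644 bp, exceeded all 3 constant genes. In H2A 2 the inducible median width, 1026 bp, was that of HSPB1, whose peak there began 294 bp after the start. In E92K 4 the inducible median percentile, 84.1, was also that of HSPB1, with its strongest summit 964 bp after the start. The differences of these 2 libraries so rest on a peak or summit inside the gene.

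Between E92K and H2A libraries, no promoter of these genes passed a test. Ranks of 13084 promoters with a peak in all 8 libraries were compared with limma on normal scores, adjusted by Benjamini-Hochberg over all of them. That test called 0 of 13084 promoters (0.0%), with 891 (6.81%) at an unadjusted p under 0.05, and 517 were at the smallest p of 0.0286 that an exact permutation test over 70 assignments can give, a test that passes the adjustment only if most promoters reach that p together. A difference that misses the threshold is not shown to be absent. Of the 9 genes with a peak, 7 had a difference above 0 and 2 below it, where 50.2% of all promoters were above 0. The member furthest from 0 was HSPA8, with a difference in normal score of 0.36 ± 0.15 (SE) and an adjusted limma p of 0.701. Groups overlapped in rank for 9 of 9 genes, where 1.86% of all promoters were higher and 2.09% lower in E92K without overlap.

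Widths were tested likewise on the log2 scale. The test called 4 of 13084 promoters (0.0306%), none of them a heat shock gene, and 5.79% passed an unadjusted p of 0.05. The median promoter was −0.03 on that scale, that is narrower in E92K libraries, and 3 of 9 heat shock genes were above 0 and 6 below it, where 36.7% of all promoters were above 0. HSPH1 differed most, by −0.22 ± 0.08 (SE), with an adjusted limma p of 0.768. It was the only one of the 9 whose groups did not overlap, where 3.22% of all promoters were lower and 0.795% higher in E92K without overlap. Most E92K libraries had a lower background than every H2A library, and the part of depth in widths was not tested.

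Peaks of the 8 lists were merged into 96872 regions, of which 35 touch a window of the gene plus 10 kb either side. In all 8 libraries 25 of the 35 were present, or 71.4%, against 38.1% of all regions. All regions include those far from any gene, and no share was taken for regions near other genes. No region of the 35 was present in 4 libraries of a group and 0 of the other, where 0.139% of all regions were in 4 E92K and 0 H2A libraries and 0.184% the reverse. Of the 35 regions 13 touch the promoter of a coding gene. DNAJB1 had the most, with peaks at 5 places in all 8 libraries between 11.2 and 46.0 kb before its start, of which one is the TECR promoter. HSPH1 had no region other than its promoter.

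The regions least evenly shared lay past the ends of HSP90AA1 and HSP90AB1. A region 6.5 kb after the HSP90AA1 start was present in 2 of 4 E92K and 0 of 4 H2A libraries (exact Fisher p = 0.429). One 7.9 kb after the HSP90AA1 start was present in 4 of 4 E92K and 1 of 4 H2A libraries (exact Fisher p = 0.143). A region 7.9 kb after the HSP90AB1 start was present in 4 of 4 E92K and 2 of 4 H2A libraries (exact Fisher p = 0.429). Having seen this, the length covered by peaks in the 10 kb after each gene's end was measured for all genes with a peak there in any library, 10445 in number. This measure was therefore chosen after its direction in these genes was known, and it supports nothing by itself.

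Past the HSPA8 end, peaks covered 1637, 2692, 2022 and 1867 bp in E92K libraries 1 to 4, against 1125, 1346, 1065 and 1324 bp in H2A libraries 1 to 4. All E92K values were above all H2A values. A peak that lay 2011 to 3393 bp past the gene end in H2A libraries was present in both groups. In E92K libraries peaks came nearer to the gene end, to between 527 and 1744 bp from it, whereas in H2A libraries none came nearer than 2011 bp. In E92K 3 and E92K 4 the nearest peaks were separate and weak, with folds of 1.98 and 2.14 at percentiles 9.86 and 17.8. The shared peak of E92K 3 itself began 2208 bp past the gene end, within the H2A range. The strongest summit of the shared peak had a lower fold in E92K, at 3.86 to 4.73, than in H2A libraries, at 4.45 to 5.55, with an overlap. Each fold is over the local background of its own library. Pileups there also overlapped, at 76 to 115 fragments in E92K and 81 to 102 in H2A libraries.

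HSP90AB1 showed 2178, 2519, 2388 and 2277 bp in the E92K libraries, against 1220, 1214, 1715 and 2085 bp in the H2A libraries. These groups did not overlap either. In E92K libraries a peak of 1223 to 1539 bp began 328 to 581 bp past the gene end, whereas only H2A 3 and H2A 4 had a peak there, of 443 and 750 bp. These peaks stood at percentiles 40.5 to 55.2 in the E92K libraries, and 5.27 and 29.1 in H2A 3 and H2A 4. The next peak along is the promoter of SLC35B2, a sulfate donor transporter gene, and it went the other way in width and fold. It was 955, 910, 1122 and 1003 bp wide in the E92K libraries, against 1220, 1214, 1272 and 1335 bp in the H2A libraries. Among all tested promoters 3.22% were narrower in E92K without overlap. Folds were 2.70 to 3.30 in E92K and 3.80 to 4.57 in H2A libraries, each over the local background of its own library. Pileups overlapped, at 83 to 113 fragments in E92K and 90 to 117 in H2A libraries. This promoter was singled out after its values were seen, and no test of it is given here.

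HSP90AA1 had 1572, 1469, 1130 and 1497 bp in the E92K libraries, against 562, 422, 684 and 1293 bp in the H2A libraries. H2A 4 overlapped with the E92K libraries, and the other 3 H2A libraries were below all of them. The peaks there were weak, at percentiles 0.755 to 37.6 in E92K and 11.1 to 33.9 in H2A libraries. H2A 4 had the highest background of the 8 libraries, and within the H2A group it also had the largest covered length past HSP90AB1. In 3 of the 4 E92K libraries the background was below that of every H2A library, while E92K 2 was within the range of the H2A group. The part of depth in these lengths was not tested.

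**Figure D4:**
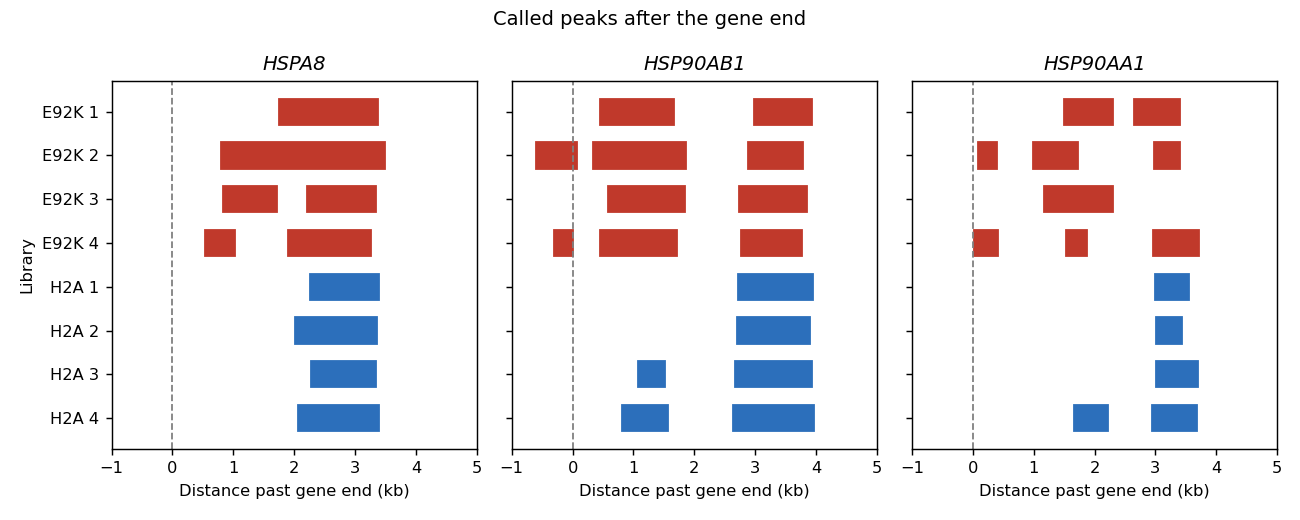
Called peaks (blocks) past the ends of HSPA8, HSP90AB1 and HSP90AA1 in each library, by distance in kb from the gene end (dashed line), E92K libraries in red above H2A libraries in blue. A block begins within 1 kb past the gene end in 3 E92K and 0 H2A libraries at HSPA8, in 4 E92K and 1 H2A libraries at HSP90AB1, and in 2 E92K and 0 H2A libraries at HSP90AA1.

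None of these differences passed limma over all 10445 genes, which called 3 higher (0.0287%) and 6 lower (0.0574%) in E92K. The difference was 839.5 ± 206 bp (SE) for HSPA8, with an adjusted limma p of 0.402. It was 782 ± 195 bp for HSP90AB1, with an adjusted p of 0.409. It was 677 ± 188 bp for HSP90AA1, with an adjusted p of 0.515. For all genes tested the median was −20 bp, and 1.12% were higher and 2.37% lower in E92K without overlap. With peaks at a q-value of 1e-05 or less alone, the difference fell to 491 bp for HSPA8 and 446 bp for HSP90AA1 and was 893 bp for HSP90AB1.

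Of the 9 heat shock genes in this test 7 were above 0 and 2 below it, against 4378 above and 6067 below among all 10445. HSPA1B had 955, 838, 797 and 847 bp in the E92K libraries, against 1072, 988, 997 and 976 bp in the H2A libraries, lower in E92K without overlap (difference −149 ± 50.8 bp SE, adjusted p = 0.553). HSPH1 had no peak there in any library. DNAJB1, HSPA1A and HSF1 had groups that overlapped, with differences of 34.5, 6.5 and 112 bp, HSPB1 had at most 115 bp and HSPA5 at most 509 bp. The 10 kb after HSPA1A takes in part of the HSPA1B promoter peak.

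**Figure D5:**
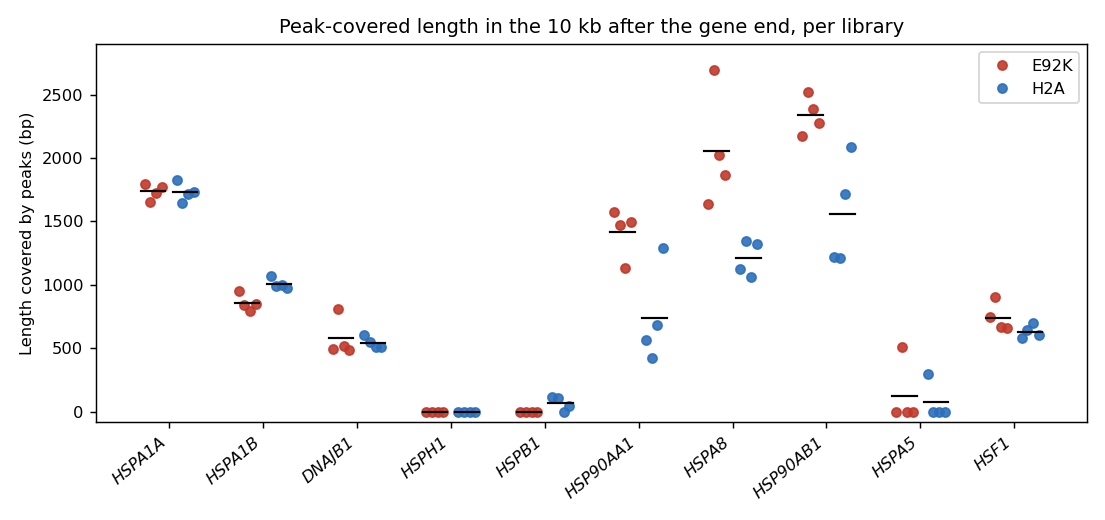
Length in bp covered by peaks in the 10 kb after the end of each gene, one point per library, E92K in red to the left of H2A in blue; black bars are means of 4 libraries. HSPA8 and HSP90AB1 have all E92K points above all H2A points, HSPA1B has all below, and HSP90AA1 overlaps through H2A 4.

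Over the whole window, the gene plus 10 kb either side, limma called 0 of 16886 genes in either direction (0.0%), with 1281 (7.59%) at an unadjusted p under 0.05. HSPA8 was covered over 3198, 4071, 3478 and 3178 bp in E92K libraries, against 2601, 2786, 2528 and 2858 bp in H2A libraries, a log2 difference of 0.36 ± 0.10 (SE) with adjusted p = 0.477. HSP90AB1 had a log2 difference of 0.25 ± 0.10 with adjusted p = 0.620. Both were higher in E92K without overlap, as were 1.03% of all genes, and HSPH1 was lower without overlap, as were 3.45%. This measure was not planned in advance and largely repeats values given above. The HSPA8 window held only the promoter peak and the peaks past the gene end. The HSP90AB1 window also takes in the stretch past its gene end. The HSPH1 window held only the promoter peak, so its difference is that of the promoter width. These are therefore not further results.

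Of 65 other genes for chaperones, cochaperones and heat shock factors, 53 (81.5%) had a promoter peak in all 8 libraries, 10 in none and 2 in some, against 65.5% of all coding genes in all 8. All 10 chaperonin genes, which encode the ring that folds actin and tubulin and its mitochondrial relative, and all 17 cochaperone genes had one in all 8. Small heat shock protein genes stood apart, with 1 of 8 open in all 8 libraries, 5 in none and 2 in some. The 2 were HSPB7, in 2 E92K and 0 H2A libraries, and HSPB8, in 3 E92K and 1 H2A libraries. Highest by mean percentile were CCT3, a chaperonin subunit, at 99.9, and the factor HSF2 at 99.8. Lowest were FKBP4, an HSP90 partner, at 63.1 and STUB1, the ubiquitin ligase CHIP, at 52.3. Of the 53 promoters limma called 0 in rank and 0 in width. At an unadjusted limma p under 0.05 there were 1 in width, where 5.79% of all tested promoters passed, and 3 in rank, where 6.81% did. Of those 3 in rank, 2 were higher and 1 lower in E92K. The lower one was HSP90B1, the HSP90 of the endoplasmic reticulum, singled out here after its values were seen, with a difference of −0.42 ± 0.12 in normal score (SE) and an adjusted limma p of 0.562.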

How the data were processed

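Each of the 8 libraries has a peak list with 10 columns and no header in narrowPeak layout, made per sample by the authors. The series' design text gives alignment to hg38. Aligner, peak caller, duplicate handling and Tn5 offset were not given in the sources used here, though each can change widths and significance. In the deposited lists the fold is a ratio over local background, p-values and q-values stand as −log10, and the deposited score tracks the q-value. No list goes below a −log10 q of 2.0. For 99.86% or more of the summits of each list, the deposited fold and p-value match a Poisson test of n fragments on a background b, the fold being (n + 1)/(b + 1), to 0.001 in −log10 p. Pileups were recovered this way. Deposited values were used to describe and rank peaks within a list. The extraction note in the labels speaks of RNA, though the assay is ATAC-seq.

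Rows with the same interval were 1 peak, represented by the summit of smallest p. Gene spans and canonical starts came from GENCODE version 44 protein-coding genes. Tests used limma 3.58.1 in R 4.3.3 with Benjamini-Hochberg adjustment, an exact two-sided permutation test over 70 assignments and Fisher's exact test; other steps used Python 3.11.15, pandas 2.3.3 and SciPy 1.17.1. The code was tested on simulated data. There the covered length after gene ends gave more false calls than its nominal rate, so its adjusted p-values are read with caution, and the rank and width tests recovered few simulated differences of the small sizes seen in these genes. Alternatives were a promoter half-width of 500 bp, a q-value of 1e-05, the peak nearest the start, each library left out, other gene sets and a replicate block. Same-numbered libraries of the groups did not deviate together (correlations from −0.188 to 0.095 in rank), so numbers were not taken as pairs.

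Members and lists were chosen with earlier results of these data known. The text names all 10 members, and of the other chaperone genes any that pass a test, those open in only some libraries, the 2 highest and 2 lowest by percentile, and HSPA1L.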

Additional observations from a re-analysis of the deposited data

Results flagged for a closer look

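In groups of 4 libraries, 8 of 88 sets of values had a library far from the other 3. Chance gives about 1 in 20 for independent, normally distributed values. These sets share peaks and libraries, so the count does not show an excess over chance. HSP90AA1 had a promoter percentile of 74.6 and a fold of 5.68 in H2A 1, with the other H2A libraries at 84.9 to 85.2 and 7.68 to 8.02. HSPA8 had a percentile of 98.3 in E92K 1, below 99.4 to 99.6 in the other E92K libraries, and of 97.8 in H2A 4, below 98.7 to 98.8 in the other H2A libraries. HSPA1B had a fold of 10.3 in E92K 1, above 8.43 to 8.67 in the others of its group, and HSPH1 a fold of 9.68 in E92K 4, above 8.77 to 8.90. The HSPA5 promoter peak was 1291 bp wide in E92K 2, against 1115 to 1141 bp in the other E92K libraries. Peaks covered 810 bp of the 10 kb after DNAJB1 in E92K 2, against 488 to 519 bp in the others. E92K 2 had the highest background of the E92K libraries and H2A 4 of the H2A libraries.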

How the results depend on the processing

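The mean percentile difference between inducible and constant promoters over libraries stayed below 0 under every alternative run. This mean was −13.9 points with a q-value of 1e-05 or less and −43.7 when percentiles were taken among the 13084 tested promoters alone. It was −5.63 with HSF1 counted as constant and −5.69 without HSPA5, and under these alternatives the sign turned in E92K 2. Leaving out a library gave −11.3 to −9.95. The width difference moved to −115 bp without HSPA1A and HSPA1B, and was −334 to −295 bp with a library left out. The fold difference of −0.189 turned round to 0.488 with HSF1 counted as constant, to 0.665 without HSPA5 and to 0.066 without E92K 4, within −0.325 to 0.066 over the libraries left out. The cause was not tested.

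Calls between E92K and H2A numbered 0 to 1 in rank and 3 to 6 in width with a library left out. The 4 width calls became 0 with the replicate block and 0 by total covered length. The exact permutation test also gave 0, but at this sample size it can pass the adjustment only if most promoters reach its smallest p together, so this says nothing of their stability. Window cover had 0 to 2 calls with a library left out and 1 with the stricter q-value. Cover after gene ends had 9 calls, 1 with the replicate block and 6 to 28 with a library left out. Regions in all libraries of a group and none of the other numbered 313, and 555 to 633 with a library left out, where 3 libraries are easier to meet than 4.

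None of 22 member values passed the threshold under any of 274 alternatives, the lowest adjusted p being 0.171. The sign turned in 10 cases. In rank these were HSPA1B without E92K 3 or E92K 4 (0.0087 and 0.0218, range −0.223 to 0.0218 with a library left out) and HSF1 without E92K 2 (−0.0161, range −0.0161 to 0.101). In width they were HSP90AA1 without H2A 3 (0.0209, range −0.105 to 0.0209), HSPB1 without H2A 2 (−0.0697, range −0.0697 to 0.211) and by total covered length (−0.0171), HSF1 without E92K 2, E92K 3 or H2A 4 (−0.0569, −0.0113 and −0.0147, range −0.0569 to 0.0894), and HSPA5 without E92K 2 (−0.0241, range −0.0241 to 0.0557). The replicate block changed no other call. No read totals were at hand, so a missing peak means only that none was called at that depth.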
